A study of Mus musculus with 23 samples.

Results

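MERVL, a mouse endogenous retrovirus, and its MT2 long terminal repeats (LTRs) were followed in RNA from spinal cord of PS19 mice and their controls. The members were the 7 rows of the deposited repeat table that belong to the ERVL family and carry the names MERVL-int, MT2_Mm, MT2A, MT2B, MT2B1, MT2B2 and MT2C_Mm. They were 7 of 1135 repeat rows in all and 7 of 111 ERVL rows, and all 7 passed the filter on low values. PS19 mice carry a human tau transgene and are used as a model of tauopathy; the founders came from the Jackson Laboratory, the carriers were heterozygous, and the controls were wild-type littermates. RNA from lysate of the whole spinal cord was selected for poly(A) and sequenced with strand kept. The groups were 7 heterozygous PS19 and 6 wild-type control samples at 9 months, and 5 heterozygous PS19 and 5 wild-type control samples at 4 months. Sex and number of animals per sample were not given in the labels, and p-values measure the spread between these samples.

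MERVL is a retrovirus-like element whose internal part, MERVL-int, encodes Gag and Pol proteins and lies between a pair of MT2_Mm LTRs that hold its promoter. It is known for a burst of transcription in the early mouse embryo at the time when the zygotic genome is first switched on, driven by the transcription factor Dux, and for repression in later cells by chromatin regulators. MT2A, MT2B, MT2B1, MT2B2 and MT2C_Mm are related, older LTRs of the ERVL family, many of which stand alone in the genome without an internal part.

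Each value was a number of reads assigned to a repeat name and divided by a size factor for the sample, called normalized reads here. The copies' lengths and numbers were not used, so levels are compared between samples and not between members. A read of a member can come from an element's own transcript or from a copy lying inside another transcript, and the values do not separate these. Because tissue was measured in bulk, fewer cells of a type and less RNA per cell cannot be told apart. The table held repeats and no genes, so the tissue was not checked against marker genes.

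Reads assigned to repeats ranged from 338090 to 2168280 per sample, and the smallest value of a member rested on 91 reads. At 4 months the total normalized repeat signal fell into 2 ranges that follow the sample numbers in the titles. It was 1494940 to 2459740 in the 6 samples numbered up to 260 (replicates 1 to 3 of each genotype, the earlier-numbered samples) and 471178 to 779835 in the 4 samples numbered above 260 (replicates 4 and 5, the later-numbered samples). At 9 months it lay between 370990 and 539759. Values of the 2 sets are therefore given beside the main 4-month results.

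MERVL-int, the coding part, had the largest ratio of its highest to its lowest sample among the 7 members. In 4-month controls the 5 samples had 2058, 3411, 2657, 944 and 1192 normalized reads. In 4-month PS19 the 5 samples had 2072, 2129, 2841, 1391 and 806. At 9 months the lowest, median and highest values were 143, 210 and 266.5 in controls and 172, 291 and 403 in PS19. Every 4-month sample was above every 9-month sample, and the earlier-numbered 4-month samples were above the later-numbered ones in both genotypes.

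MT2_Mm, the LTR of MERVL itself, had the same order of ages. Its normalized reads at 4 months were 1115, 1733, 1426, 557 and 503 in controls. In 4-month PS19 they were 1027, 1217, 1482, 698 and 490. The lowest, median and highest at 9 months were 171, 216 and 290 in controls and 216, 260.8 and 327 in PS19. No 9-month sample reached the lowest 4-month sample, and the genotypes overlapped at both ages.

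MT2A, an older LTR, showed the same separation of ages at a smaller distance. It had 2989, 4860, 3666, 1167 and 1338 normalized reads in 4-month controls and 2885, 3018, 3574, 1627 and 1127 in 4-month PS19. At 9 months its lowest, median and highest values were 706, 781 and 915 in controls and 650, 847 and 1045 in PS19. The ages did not overlap within either genotype, although the highest 9-month value, in PS19, lay close to the lowest 4-month value.

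MT2B was the exception. Its normalized reads at 4 months were 3914, 5779, 4622, 1021 and 1638 in controls and 3673, 3775, 4215, 1972 and 1167 in PS19. At 9 months the lowest, median and highest were 2819, 3186 and 3539 in controls and 3064, 3409 and 3680 in PS19. Here the 9-month samples were above all 4 later-numbered 4-month samples in both genotypes. They were below all 3 earlier-numbered ones in controls and, in PS19, below them except that the highest 9-month sample passed the lowest of the 3. In normalized reads MT2B was also the steadiest member over the 13 samples of 9 months. Its coefficient of variation was 7.98 percent, against 33.2 percent for MERVL-int. As a share of all repeat signal that coefficient was 11.9 percent, above those of MT2A (5.86), MT2_Mm (9.84) and MT2B1 (11.8). It was below those of MT2B2, MT2C_Mm and MERVL-int.

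The other 3 LTRs, MT2B1, MT2B2 and MT2C_Mm, were high in the earlier-numbered 4-month samples. MT2B1 had 2019 to 3376 normalized reads in those 6 samples, 606 to 1097 in the 4 later-numbered ones and 657 to 953 at 9 months. MT2B2 had 1093 to 1863, 289 to 538 and 294 to 518 in the same order. For both, the later-numbered 4-month samples and the 9-month samples overlapped. MT2C_Mm, with the fewest reads at 9 months, had 620 to 1019, 150 to 255.3 and 87.9 to 167; in controls its highest 9-month and lowest 4-month samples were level at 149.5.

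**Figure D1:**
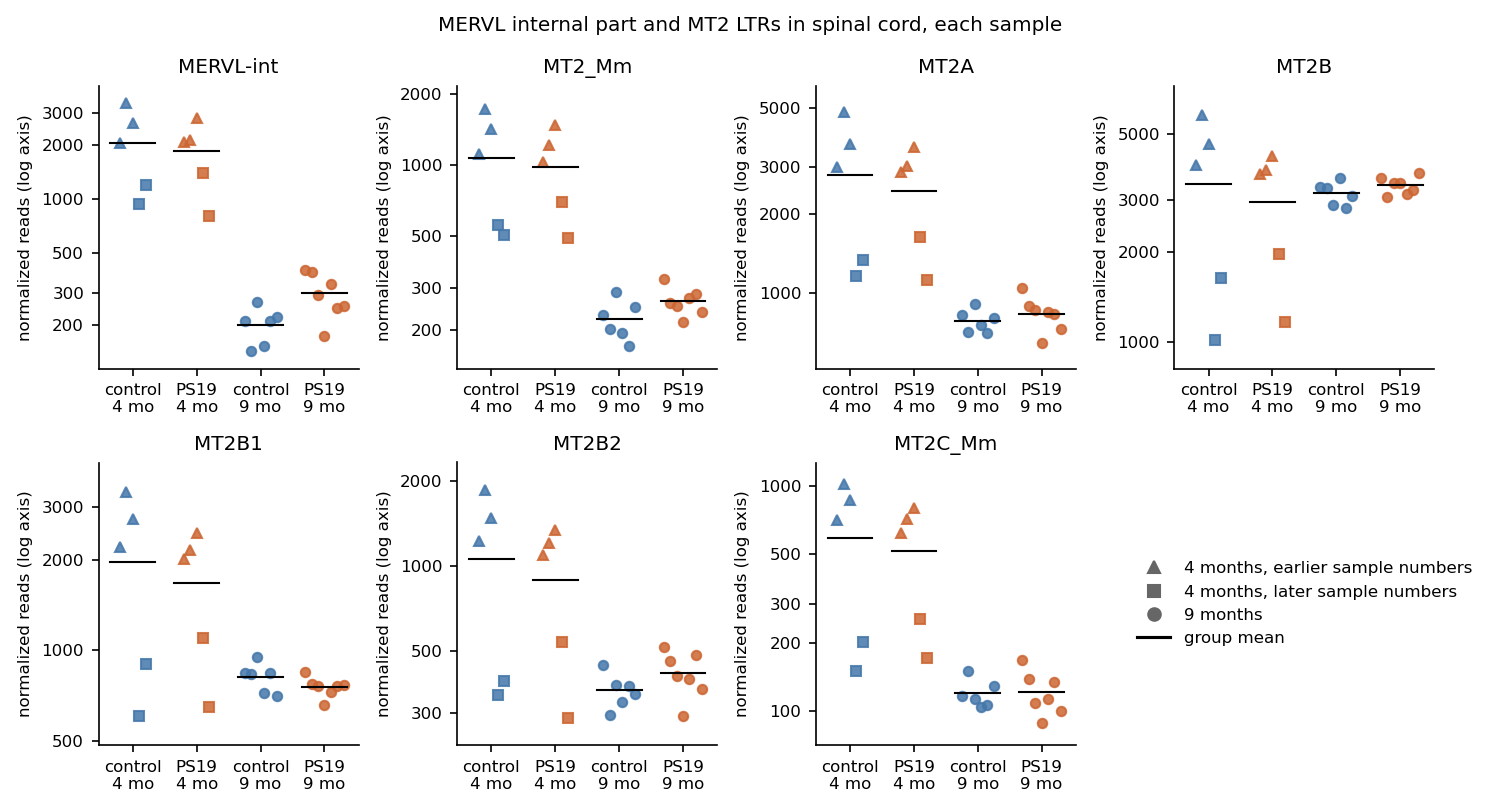
Normalized reads of each of the 7 members in each sample, on a log axis with its own range per panel; triangles are earlier-numbered and squares later-numbered 4-month samples, circles are 9-month samples, blue is control, orange is PS19, and the black line is the group mean. MERVL-int, MT2_Mm and MT2A are lower in every 9-month sample than in any 4-month sample of the same genotype, while the 9-month MT2B values (2819 to 3680) lie above the squares and, but for the topmost PS19 sample, below the triangles.

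The first question was whether the elements differ between PS19 and control at 9 months. In normalized reads, the mean of MERVL-int was 299.9 ± 84.2 over the 7 PS19 samples and 200.3 ± 46.0 over the 6 controls (SD). It was above the control median in 6 of 7 PS19 samples and above every control in 4 of 7, and the groups overlapped. The log2 fold change of log2(value + 1) was 0.56 (SE 0.18, 95% interval 0.19 to 0.93), with an adjusted p of 0.0961 by limma over the 920 rows tested. It thus missed the threshold of 0.05, with an unadjusted limma p of 0.0047. Of all rows, 3.37 percent were called in this comparison, 3.04 percent higher and 0.326 percent lower in PS19. Of the 7 members 0 were called by limma, 1 had an unadjusted p under 0.05, and 6 had a positive fold change. Over all 920 rows, 164 had an unadjusted p under 0.05 and 690 a positive fold change, so the members' counts were near the background. Scaled within repeats, 3 of 7 members and 475 of 920 rows were positive.

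The MERVL-int result moved across the threshold with the method and with single samples. With DESeq2 on the reads behind the values the log2 fold change was 0.58 (adjusted p = 0.0405), and with edgeR the adjusted p was 0.0806. Without PS19 replicate 4, the lowest PS19 sample, limma gave an adjusted p of 0.0188, and without control replicate 3, the highest control, 0.0245. These were the 2 called of 13 fits that each left out 1 sample, and the highest adjusted limma p among the 13 was 0.238. With all 23 samples fitted together, the unadjusted limma p for MERVL-int was 0.101 and the adjusted p 0.9997. Scaled within repeats by TMM (trimmed mean of M-values), the fold change was 0.38 with an adjusted p of 0.163. That scaling moved the median of all rows from 0.19 to 0.01.

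Sample numbers and genotype were not balanced at 9 months. PS19 replicates 1 to 5 had numbers below those of all 6 controls, with 403, 394, 291, 172 and 339 normalized reads of MERVL-int. PS19 replicates 6 and 7 fell in the number range of the controls and had 246 and 253, both above the control median of 210 and below the highest control. With only these 2 PS19 samples the log2 fold change was 0.35 and the adjusted p by limma was 0.676. The part of the sample numbers in the result was not tested beyond this.

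MT2_Mm averaged 264.9 ± 35.6 in PS19 and 222.5 ± 42.8 in controls at 9 months (SD, n = 7 and 6). All 7 PS19 samples were above the control median of 215.5, the lowest only just (216.0), and 1 was above every control. The log2 fold change was 0.26 (limma adjusted p = 0.306), and 0.08 when scaled within repeats. MT2B2 had a log2 fold change of 0.19, MT2B of 0.09, MT2A of 0.08 and MT2C_Mm of 0.00, with limma adjusted p-values from 0.413 to 0.998. MT2B1 had the only negative value, -0.11 (limma adjusted p = 0.554), and 1 of 7 PS19 samples was above its control median. No member had groups without overlap, which 0.978 percent of all rows had in the higher and 0.326 percent in the lower direction.

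The members' median log2 fold change at 9 months was 0.09, against 0.19 for all 920 rows. MERVL-int ranked 127 of 920 from the highest. Scaled within repeats, MT2A (-0.10), MT2B (-0.09) and MT2C_Mm (-0.18) changed sign, and MT2B1 was at -0.29 with an unadjusted limma p of 0.00199 and an adjusted p of 0.0703. As a share of all repeat signal, MERVL-int was 0.0664 ± 0.0147 percent in PS19 and 0.0494 ± 0.0093 percent in controls, and MT2B1 was 0.170 ± 0.0093 percent and 0.202 ± 0.0185 percent.

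At 4 months every member's PS19 mean lay below its control mean, by a small amount compared with the spread. A lower PS19 value was the common state, as 340 of 920 rows had a positive log2 fold change and the median was -0.08. Scaled within repeats, MT2_Mm, MT2B and MT2C_Mm turned positive. The mean of MERVL-int was 1848 ± 776 in PS19 and 2052 ± 1022 in controls (SD, n = 5 each). Its log2 fold change was -0.12 (SE 0.52, 95% interval -1.22 to 0.99). The 7 members ranged from -0.15 to -0.06, each with a limma adjusted p of 0.9999, and 0 of 7 were called, where 0 percent of all rows were called. At an unadjusted limma p under 0.05 there were 0 members and 0 of all rows. With a term for the earlier- and later-numbered samples, the SE of MERVL-int fell to 0.22, with a limma p of 0.606, and again 0 members were called.

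The difference of the genotype effect between the ages was tested directly. It was 0.68 for MERVL-int (SE 0.50, limma adjusted p = 0.997) and between 0.01 and 0.34 for the 6 LTRs. Of the members 0 were called, as were 0 percent of all rows, and 0 members had an unadjusted limma p under 0.05. With the term for the sample numbers the limma p for MERVL-int was 0.0232 and the adjusted p 0.482.

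**Figure D2:**
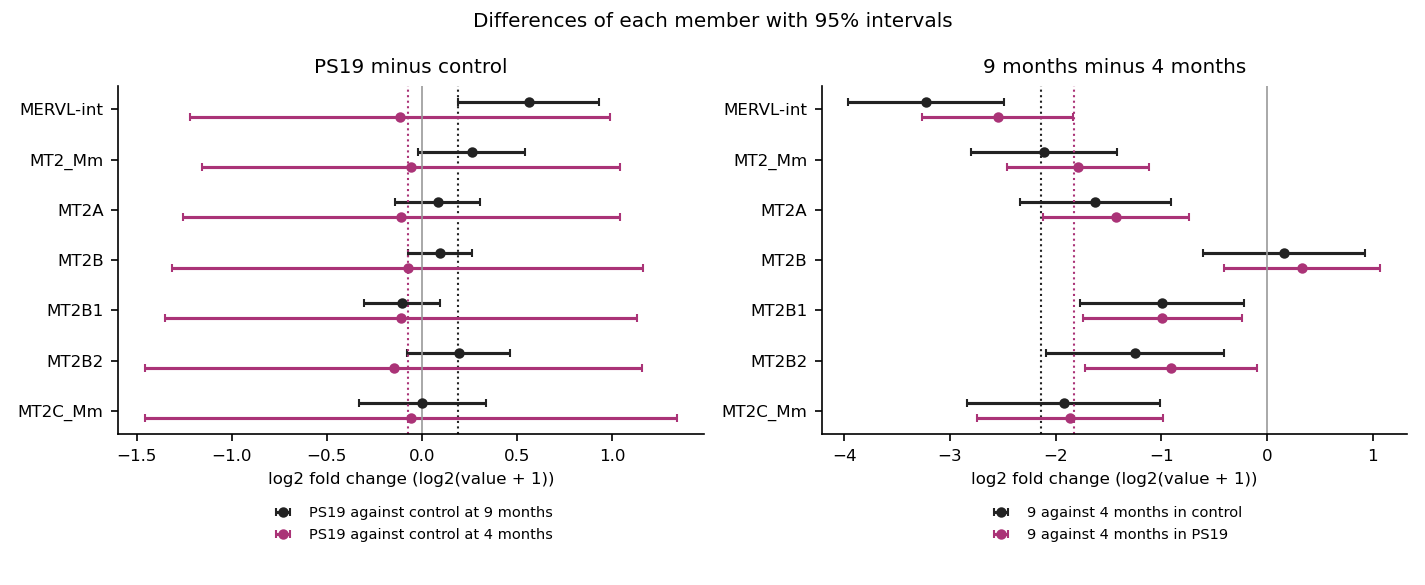
Log2 fold change of each member with its 95% interval from limma, PS19 minus control on the left and 9 minus 4 months on the right; dotted lines mark the median of all 920 rows in the same colour. At 9 months the interval of MERVL-int (0.19 to 0.93) is above 0 while the intervals of the 6 LTRs include it, and in the age comparison MERVL-int lies farthest to the left and MT2B beside 0.

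The second question was how the elements differ between ages. On the authors' scale 6 of 7 members were called lower at 9 months in controls, where 79.3 percent of all rows were called lower and 6.09 percent higher. MERVL-int was 9.35-fold lower on the log scale (log2 fold change -3.22, SE 0.36, limma adjusted p = 5.68e-08). MT2_Mm (-2.11), MT2C_Mm (-1.93), MT2A (-1.63), MT2B2 (-1.25) and MT2B1 (-0.996) followed, with limma adjusted p-values up to 0.0167. MT2B was at 0.16 (SE 0.37, 95% interval -0.60 to 0.93, limma adjusted p = 0.690). The groups did not overlap for 4 members, MERVL-int, MT2_Mm, MT2A and, with values that touch at 149.5, MT2C_Mm, all lower at 9 months; 48.4 percent of all rows had this pattern.

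PS19 samples gave the same order at its ends. Of the 7 members 6 were called lower, where 77 percent of all rows were called lower and 6.09 percent higher. MERVL-int was 5.85-fold lower (log2 fold change -2.55, SE 0.35, limma adjusted p = 1.98e-06). MT2C_Mm was at -1.87, MT2_Mm at -1.79, MT2A at -1.43, MT2B1 at -0.99 and MT2B2 at -0.91, with limma adjusted p-values up to 0.0368. MT2B was at 0.33 (limma adjusted p = 0.393). The same 4 members as in controls had groups without overlap, which 43.3 percent of all rows had in the lower direction.

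Read against the whole table, a lower value at 9 months was the common state. The median log2 fold change of all rows was -2.14 in controls and -1.83 in PS19, and that of the 7 members was -1.63 and -1.43. MERVL-int stood at the 9.02 percentile of all rows in controls and the 20.2 percentile in PS19, MT2_Mm near the middle (51.1 and 51.7) and MT2B at the 90.5 and 89.3 percentile. Ages also coincide with any difference in preparation, counting or scaling between the 4- and 9-month libraries, and these cannot be told apart from age.

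The age difference depended on the scaling and on which 4-month samples were used. Scaling within repeats by TMM brought the median of all rows to -0.09 in controls and -0.05 in PS19. The members then split: MERVL-int was still called lower, at -1.14 in controls (limma adjusted p = 1.28e-05) and -0.75 in PS19 (limma adjusted p = 0.00125). MT2_Mm was at -0.03 and 0.01. Called higher in both genotypes were MT2B (2.25 and 2.14), MT2B1 (1.09 and 0.82), MT2B2 (0.84 and 0.90) and MT2A (0.46 and 0.37), that is 4 of 7 members, where 32.7 percent of all rows were called higher and 29.2 percent lower in controls, and 32.3 and 27.8 percent in PS19. MT2C_Mm was at 0.15 and -0.07, with limma adjusted p-values of 0.246 and 0.622.

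With only the later-numbered 4-month samples and the authors' scale, MERVL-int was at -2.43 in controls and -1.87 in PS19, and MT2_Mm at -1.27 and -1.15. MT2B was now called higher at 9 months, at 1.28 (limma adjusted p = 3.01e-06) and 1.14 (limma adjusted p = 1.80e-05). In all, 1 member was called higher and 3 lower in controls, where the shares of all rows were 16.3 and 50.2 percent. In PS19 1 was higher and 4 lower, where the shares were 14 and 50.2 percent. With only the earlier-numbered samples, a choice made after seeing the data, MT2B was lower in controls, at -0.58 (limma adjusted p = 0.000103). MERVL-int kept its call under each of these settings, and MT2B took either sign.

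**Figure D3:**
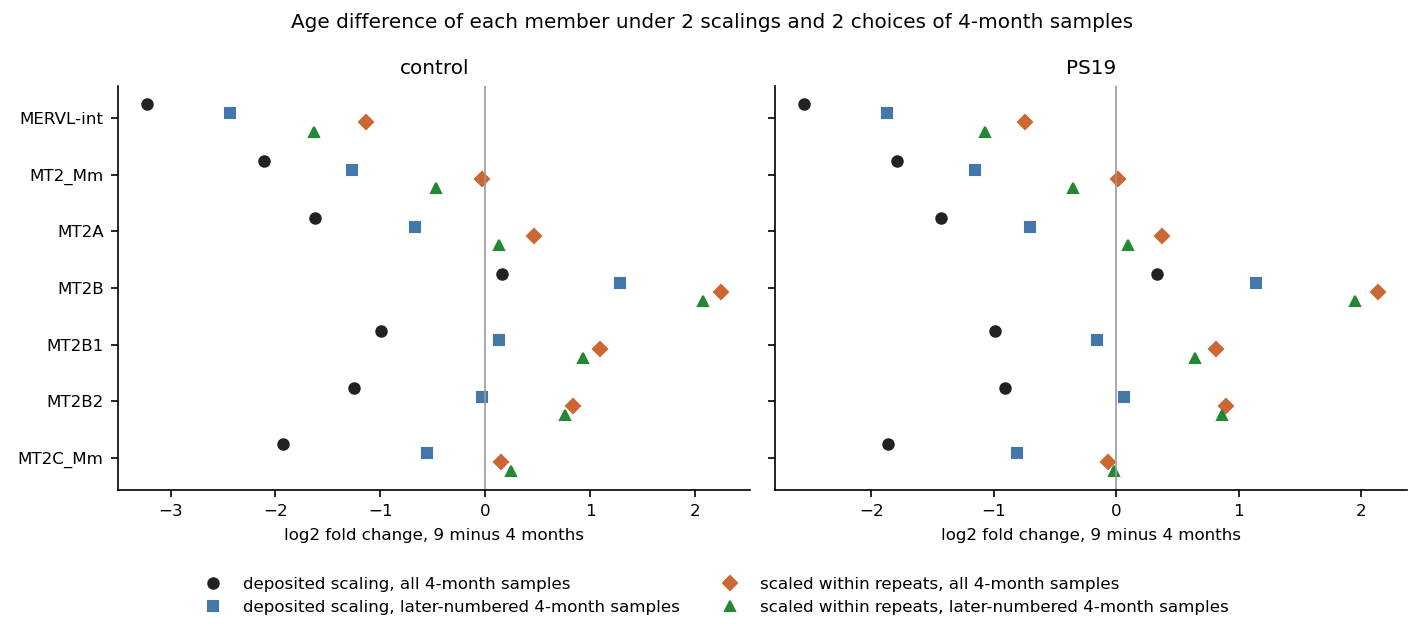
Log2 fold change from 4 to 9 months of each member in controls and PS19, under the authors' scaling or scaling within repeats, with all 4-month samples or the later-numbered ones only. MERVL-int is below 0 in each setting drawn (-3.22 to -1.14 in controls), whereas MT2B1 and MT2B2 lie on both sides of 0 and MT2B is above it in these settings, from 0.16 to 2.25 in controls.

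A ratio of 2 rows of the same sample does not depend on the sample's size factor. Normalized reads of MERVL-int per normalized read of MT2_Mm were 1.95 ± 0.26 in 4-month controls and 1.86 ± 0.16 in 4-month PS19 (SD, n = 5 each). They were 0.906 ± 0.174 in 9-month controls (SD, n = 6) and 1.12 ± 0.24 in 9-month PS19 (SD, n = 7). The 10 samples of 4 months lay between 1.65 and 2.37, with means of 1.89 and 1.93 in the earlier- and later-numbered samples, and the 13 samples of 9 months lay between 0.710 and 1.51. Thus MERVL-int had about the reads of MT2_Mm at 9 months and nearly double at 4 months, without overlap. How often other pairs of rows separate the ages was not counted. Scaled within repeats by TMM, 32.7 percent of all rows were called higher and 29.2 percent lower at 9 months in controls.

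The 4 comparisons of the MERVL-int to MT2_Mm ratio were tested by two-sided exact permutation tests on log2, adjusted over the 4. The ratio fell by 1.12 on the log2 scale from 4 to 9 months in controls (exact p = 0.00433, adjusted 0.00866) and by 0.76 in PS19 (exact p = 0.00253, adjusted 0.00866), lower in each 9-month sample than in any 4-month sample. Both exact p-values are the smallest that this two-sided test can give for groups of these sizes. At 9 months PS19 was 0.30 higher than control (exact p = 0.0967, adjusted 0.129), and the groups overlapped. At 4 months the difference was -0.06 (exact p = 0.603). With the later-numbered 4-month samples alone the age differences were -1.17 and -0.72, where the exact p of 0.0714 and 0.0556 were the smallest that so few samples can give. Without control replicate 5, the control with the highest ratio, the difference at 9 months was 0.39 with an adjusted exact permutation p of 0.0471. This was the only 1 of 13 tests without a single sample to pass the threshold, and their highest adjusted exact permutation p was 0.259.

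**Figure D4:**
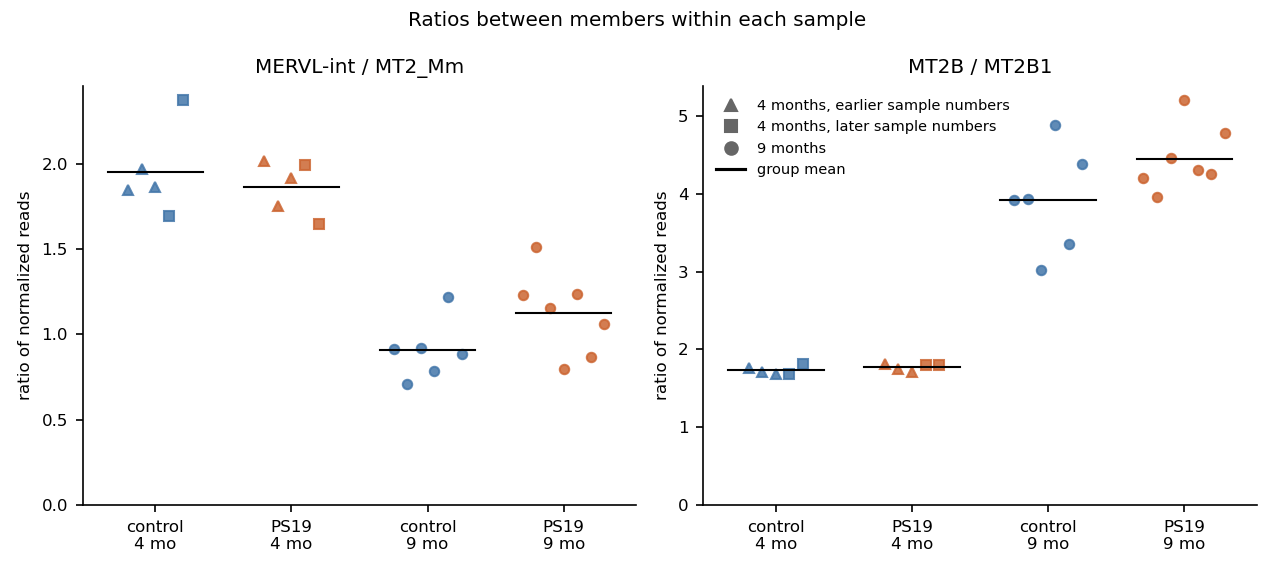
Ratio of normalized reads within each sample, MERVL-int over MT2_Mm on the left and MT2B over MT2B1 on the right, by group; triangles and squares are earlier- and later-numbered 4-month samples, circles 9-month samples, blue is control, orange is PS19, and lines are group means. Both ratios separate the ages without overlap, the left one falling from 1.65 to 2.37 down to 0.710 to 1.51, and the right one rising from 1.69 to 1.82 up to 3.02 to 5.21.

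The make-up of the 7 members' summed signal also differed between ages. MT2B was 25.8 ± 1.8 percent of it at 4 months (SD, n = 10, from 21.3 to 27.5) and 55.6 ± 3.8 percent at 9 months (SD, n = 13, from 49.7 to 62.3). MERVL-int was 16.7 ± 1.9 percent at 4 months and 4.28 ± 1.24 percent at 9 months. MT2_Mm went from 8.84 ± 1.28 to 4.16 ± 0.57 percent, MT2A from 22.0 ± 1.2 to 13.8 ± 1.2 percent and MT2C_Mm from 4.25 ± 0.79 to 2.05 ± 0.32 percent. MT2B1 had 14.7 ± 0.9 and 13.4 ± 1.5 percent, and MT2B2 7.71 ± 0.93 and 6.66 ± 0.91 percent, both with overlap of the ages. The 4-month sets differed in some of these shares: MERVL-int was 15.4 ± 0.9 percent in the 6 earlier-numbered and 18.6 ± 1.1 percent in the 4 later-numbered samples, and MT2B 26.6 ± 0.8 and 24.7 ± 2.4 percent (SD). As shares of 1 sum these values depend on each other, and they were described without a test.

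MT2B also parted from its closest namesakes, a pattern chosen after its values were seen and given without a test. The ratio of MT2B to MT2B1 was 1.69 to 1.82 in the 10 samples of 4 months, in both sets of sample numbers, and 3.02 to 5.21 in the 13 samples of 9 months. The ratio of MT2B to MT2B2 was 2.93 to 4.19 and 6.67 to 11.7. Of all repeat signal, MT2B was 0.239 ± 0.016 percent at 4 months and 0.770 ± 0.091 percent at 9 months, and MERVL-int 0.155 ± 0.022 and 0.0585 ± 0.0149 percent. At 4 months MERVL-int was 0.128 to 0.152 percent in the earlier-numbered and 0.171 to 0.186 percent in the later-numbered samples, while MT2B had a mean of 0.239 percent in both. MT2A, in turn, had nearly the same share at both ages, 0.204 ± 0.018 and 0.191 ± 0.011 percent.

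**Figure D5:**
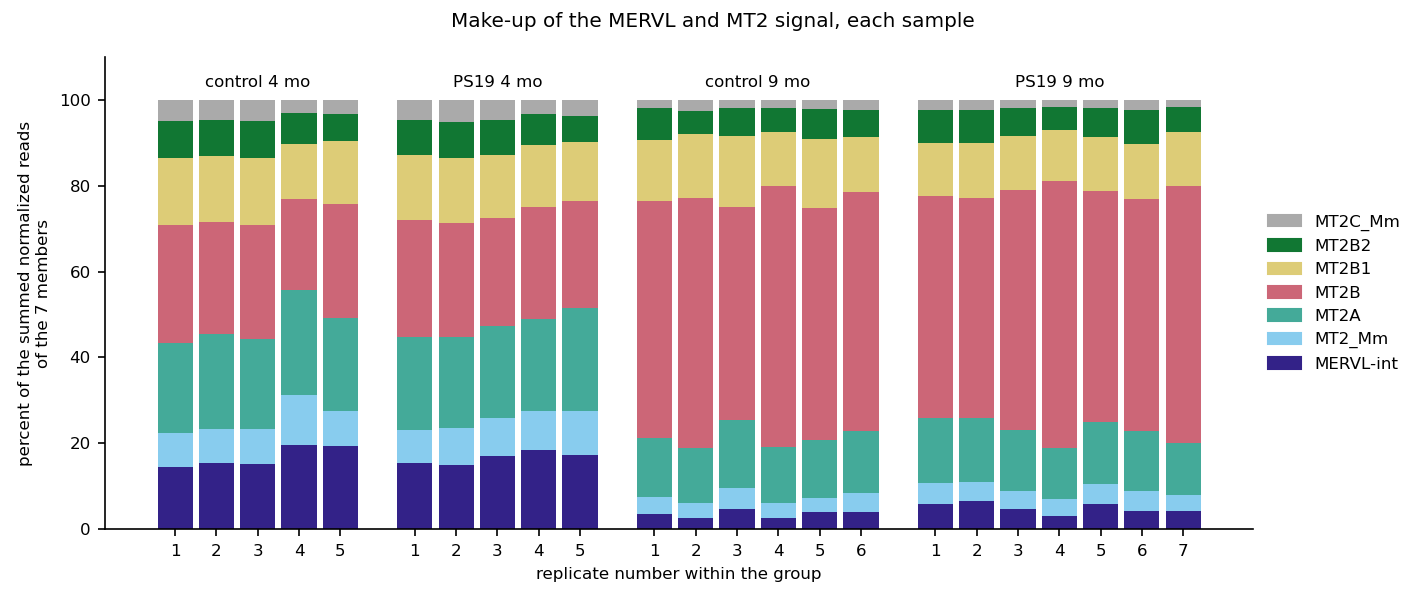
Percent of the summed normalized reads of the 7 members that each member holds, 1 bar per sample, grouped by genotype and age. MT2B takes 21.3 to 27.5 percent in each 4-month sample and 49.7 to 62.3 percent in each 9-month sample, and MERVL-int shrinks from a mean of 16.7 to 4.28 percent.

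Together the 7 members made up 0.927 ± 0.038 percent of all repeat signal at 4 months and 1.38 ± 0.08 percent at 9 months, and 36.4 ± 1.7 and 48.9 ± 1.4 percent of the ERVL family's. MT2B alone went from 0.239 to 0.770 percent of all repeat signal, a larger rise than that of the sum. The mean shares of MT2B1 (0.136 to 0.185 percent) and MT2B2 (0.0711 to 0.0916 percent) also rose, while those of MERVL-int, MT2_Mm and MT2C_Mm fell. MT2A changed little, from 0.204 to 0.191 percent, with 0.192 percent in the earlier-numbered and 0.221 percent in the later-numbered 4-month samples. Scaled within repeats by TMM, MT2A was called higher at 9 months in both genotypes, and MT2_Mm and MT2C_Mm were not called. The share of ERVL at 4 months was 35.2 ± 0.3 percent in the 6 earlier-numbered and 38.2 ± 1.0 percent in the 4 later-numbered samples, and the share of all repeats 0.900 ± 0.012 and 0.967 ± 0.023 percent. Between genotypes the sum differed little: at 9 months it was 49.4 ± 1.4 percent of the ERVL signal in PS19 and 48.3 ± 1.1 percent in controls (SD, n = 7 and 6), and at 4 months 36.5 ± 1.9 and 36.3 ± 1.7 percent (SD, n = 5 each).

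Over the 13 samples of 9 months the internal part and its LTR did not vary closely together. On values scaled within repeats, the log2 levels of MERVL-int and MT2_Mm had a Pearson r of 0.38 and a Spearman rho of 0.33. The r was -0.02 without the 2 samples farthest from the median of MERVL-int, a choice that narrows its range and can itself lower r. Between MERVL-int and MT2B r was -0.52, and -0.50 with the genotype means removed. With those means removed, r of MERVL-int was 0.25 with MT2_Mm, 0.62 with MT2A (0.12 before) and 0.47 with MT2B2 (0.41 before). It was -0.01 with MT2B1 (-0.42 before) and -0.06 with MT2C_Mm (-0.31 before). Among 641 rows, those most like MERVL-int were RLTR9C of the ERVK family (r = 0.91), RMER15 of ERVL (r = 0.86), the LINE rows L1M4c and L1MA9 (r = 0.84 each) and MTE2a-int (r = 0.79), against a median r of 0.07. Those most like MT2_Mm were MER102c (r = 0.78), RCHARR1 (r = 0.72), RLTR1D2_MM (r = 0.71), L1MC2 and ORR1A4-int (r = 0.69 each), against a median of 0.11, and the lists shared 0 rows. For the MT2_Mm list the Spearman rho was 0.78 for MER102c and 0.48 to 0.59 for the rest. Both lists hold the highest r of 641 rows over 13 samples, so high values were selected, and they were not tested. These are descriptions of rows that share each sample's scaling within repeats, with both genotypes together except where genotype means were removed.

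For comparison, MERVL_2A-int, the row nearest in name, had a log2 fold change of 0.28 in PS19 at 9 months (limma adjusted p = 0.383). It was at -2.60 and -2.22 between the ages in controls and PS19. Of the young mouse MaLR elements, non-coding relatives of ERVL, ORR1A1-int was called higher in PS19 at 9 months, at 0.80 (limma adjusted p = 0.000966), with all 7 PS19 samples above all 6 controls (374 ± 52 and 215 ± 41 normalized reads). ORR1A0-int (0.45), ORR1A0 (0.37), MTA_Mm-int (0.31), MTA_Mm (0.31) and ORR1A1 (0.16) were not called. Of 49 MT and ORR1 MaLR rows 3 were called higher and 0 lower, with a median of 0.24, beside 3.04 percent higher and a median of 0.19 over all rows. Scaled within repeats 1 was called higher and the median was 0.06, and with all 23 samples fitted together 0 were called, with 2 of the 49 at an unadjusted limma p under 0.05.

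Among the other 86 ERVL rows tested, 1 was called higher and 1 lower in PS19 at 9 months, and the median was 0.13. The highest of those with a mean of at least 50 over all 23 samples were LTR40b (0.78, limma adjusted p = 0.420) and ERVL-int (0.74, limma adjusted p = 0.304), neither called. Both reached that mean through the 4-month samples: at 9 months LTR40b had only 7.18 ± 3.28 normalized reads in PS19 and 6.05 ± 7.41 in controls, and ERVL-int 14.3 ± 5.8 and 8.66 ± 4.21. The lowest were LTR50, called at -0.55 (limma adjusted p = 0.0144), and LTR33A_ (-0.44, limma adjusted p = 0.0562), which missed the threshold although its groups did not overlap. Between the ages in controls, 68 of these 86 rows were called lower and 4 higher, with a median of -2.25, beside the 79.3 percent lower and 6.09 percent higher of all rows. Scaled within repeats, 30 were lower and 20 higher, with a median of -0.22, and with the later-numbered 4-month samples 41 were lower and 13 higher. The difference between the members and these rows was not tested.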

How the data were processed

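Per the labels' protocols, poly(A) RNA of spinal cord lysate (Qiagen RNeasy, Illumina TruSeq) was sequenced in stranded pairs. The authors deposited a signal per repeat name and sample, reads divided by a size factor. Tools listed in the submitters' processing notes are Trimmomatic, STAR and DESeq2, with the build mm10. The sources used here do not name the repeat counter, how it handled multi-mapped reads, or the features behind the size factors. LTRs of similar sequence could exchange reads.

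All 23 columns matched a sample title and 0 were unused. Reads were recovered from the steps of each column: 100 percent of values were whole reads at a tolerance of 0.1 percent. All sample pairs of a group differed beyond sampling noise (lowest chi-square per degree of freedom 4.00), so each counted. Replicates were numbered in order of listing.

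Values were fitted as log2(value + 1) with limma 3.58.1 (R 4.3.3; empirical Bayes with trend) over the 920 rows with a mean of at least 10, of 1135; p-values were adjusted by Benjamini-Hochberg over all rows tested, threshold 0.05. Samples of each age were fitted alone for genotype, and all 23 together for age and interaction. The pseudocount understates changes of low rows. Alternatives used DESeq2 1.42.0 and edgeR 4.0.16 on those reads, TMM within repeats, other pseudocounts and filters, sample-number sets and leaving out samples. Ratios were tested by exact permutation (scipy 1.17.1). The fits were tested on simulated data.

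Named besides the members were the 5 rows most correlated with MERVL-int and with MT2_Mm at 9 months (mean at least 50), named near relatives (MERVL_2A-int, MTA and ORR1A rows), and the 2 highest and 2 lowest other ERVL rows by fold change at 9 months (mean at least 50 over all 23 samples, which the higher 4-month values can carry). Members and lists were chosen with earlier results of these data known.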

Additional observations from a re-analysis of the deposited data

How the results depend on the processing

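No paired analysis was possible because the labels give no pairing of samples. Copy-level mapping, sex and the size factors' origin limit every value; the smallest values rest on 91 reads. Causes of the changes below were not tested.

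At 9 months the members called rose from 0 to 1 (MERVL-int, higher) with DESeq2, and ranged from 0 to 1 when single samples were left out. Over all 920 rows the calls were 31 with limma, 24 with edgeR, 45 with DESeq2, 13 with TMM scaling and 1 with all 23 samples fitted together, and 7 to 78 without single samples. TMM scaling within repeats turned MT2A to -0.10, MT2B to -0.089 and MT2C_Mm to -0.18. MT2C_Mm was -0.034 with PS19 samples numbered 180 and above, and -0.081 to 0.073 without single samples.

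At 4 months, TMM gave 0.042 for MT2_Mm, 0.024 for MT2B and 0.041 for MT2C_Mm. Without single samples the ranges were -0.36 to 0.15 for MERVL-int, -0.29 to 0.17 for MT2_Mm, -0.37 to 0.14 for MT2A, -0.44 to 0.22 for MT2B, -0.47 to 0.19 for MT2B1, -0.47 to 0.20 for MT2B2 and -0.46 to 0.28 for MT2C_Mm. For the interaction, TMM gave -0.089 for MT2A, -0.11 for MT2B, -0.28 for MT2B1 and -0.22 for MT2C_Mm; without single samples MT2A was -0.059 to 0.46, MT2B -0.13 to 0.53, MT2B1 -0.30 to 0.36, MT2B2 -0.012 to 0.67 and MT2C_Mm -0.27 to 0.46.

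For age in controls, the members called higher and lower were 0 and 6 in the report's fit, beside 6.09 and 79.3 percent of all rows. They were 4 and 1 with TMM, beside 32.7 and 29.2 percent of all rows. With later-numbered 4-month samples they were 1 and 3, beside 16.3 and 50.2 percent. TMM gave 0.46 for MT2A, 1.09 for MT2B1, 0.84 for MT2B2 and 0.15 for MT2C_Mm. Later-numbered samples gave 0.13 for MT2B1. Both together gave 0.13 for MT2A, 0.93 for MT2B1, 0.76 for MT2B2 and 0.24 for MT2C_Mm. MT2B was -0.11 with edgeR and with DESeq2, -0.58 with earlier-numbered samples and -0.20 to 0.42 without single samples. MT2B1 lost its call without 4-month control replicate 2 or replicate 3 (adjusted p = 0.0728 and 0.0620, limma).

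For age in PS19, the counts were 4 and 1 with TMM, beside 32.3 and 27.8 percent of all rows. With later-numbered samples they were 1 and 4, beside 14 and 50.2 percent. TMM gave 0.011 for MT2_Mm, 0.37 for MT2A, 0.82 for MT2B1 and 0.90 for MT2B2. Later-numbered samples gave 0.061 for MT2B2 and earlier-numbered ones -0.21 for MT2B. Both together gave 0.10 for MT2A, 0.64 for MT2B1 and 0.86 for MT2B2. MT2B2 lost its call in 7 of 12 fits without a sample (limma adjusted p up to 0.119), and MT2B1 without 4-month PS19 replicate 3 (0.0563). Earlier-numbered samples alone, and TMM with later-numbered ones, were chosen after seeing the data.

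The MERVL-int to MT2_Mm ratio with later-numbered samples was -1.17 in controls and -0.72 in PS19, no longer past the threshold, which their number does not allow. Without single samples the difference between genotypes was 0.22 to 0.39 at 9 months and -0.11 to 0.014 at 4 months. MERVL-int kept its call and direction between the ages in each alternative run.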
